A study of Mus musculus with 36 samples.

Results

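The livers of mice fed 3,5-diethoxycarbonyl-1,4-dihydrocollidine (DDC) for 7 days were compared with those of mice on a control diet. The comparison held 8 of the series' 36 liver RNA libraries, and 11040 of the 29546 genes in the table passed its filter, which asked for a normalized count of 10 or more in 4 or more of the 8. Group DDC7 was 4 C57BL/6 mice given DDC at 0.1% of the diet by weight for 7 days, a state the labels call acute cholestasis. Group CTLD was 4 C57BL/6 mice on a diet without DDC. No day is given for CTLD, and neither sex nor age is given for any group. Groups set beside these were DDC28, 4 mice given the same diet for 28 days, BDL7, 4 mice sampled 7 days after the bile duct was tied off, and SHAM, the 4 sham-operated mice that served as control of BDL7. All 5 groups had the same strain, and each library came from a piece of whole liver, so hepatocytes, duct cells, immune cells and stromal cells were measured together. In such tissue, fewer cells of a type and less RNA per cell cannot be told apart.

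DDC is a suicide substrate of hepatic cytochrome P450 enzymes. The reaction destroys their heme and releases an N-alkylated porphyrin that blocks ferrochelatase, the enzyme that puts iron into protoporphyrin to make heme. Protoporphyrin then builds up, is secreted into bile and crystallises in small bile ducts, which become plugged, inflamed and ringed by scar. The duct-like cells that multiply around portal tracts are called the ductular reaction. Hepatocytes on the diet swell and, after long feeding, form Mallory-Denk bodies, aggregates of keratins, the autophagy adaptor p62 and ubiquitin.

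Of the 11040 genes tested, 2781 (25.2%) rose and 2677 (24.2%) fell in DDC7 livers against CTLD livers at an adjusted p under 0.05, from limma fitted to log2(normalized count + 1) with Benjamini-Hochberg adjustment. A log2 fold change here is the difference of group means on that scale, given with its standard error, and it understates the change of genes with low counts. By more than 1 on the log2 scale, 1100 genes (9.96%) rose and 624 (5.65%) fell. The libraries held 2640463 to 3450091 reads in DDC7 and 2081093 to 2912971 reads in CTLD. The sum of normalized counts was 2424011 to 2631311 in DDC7 libraries and 2952736 to 3385588 in CTLD libraries, so scaling to equal totals instead shifted all values up in DDC7. With that scaling the median over all tested genes was 0.357 in place of 0.015 on the log2 scale, 5089 genes (46.1%) rose and 1148 (10.4%) fell, so that 81.6% of called genes were higher, against 51.0% in the main fit. With quantile normalization 2686 genes (24.3%) rose and 2839 (25.7%) fell. Small falls are therefore read below with total-count scaling beside them wherever it ended a call. List counts of the main fit given below are to be read against the 25.2% and 24.2% of all tested genes that rose and fell. List counts given below at equal totals are to be read against the 46.1% and 10.4% of all tested genes, since the shift touches every list. The libraries matched their tissue label: albumin (Alb) had 15494 to 21601 normalized counts in DDC7 livers and 24459 to 32992 in CTLD livers.

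**Figure D1:**
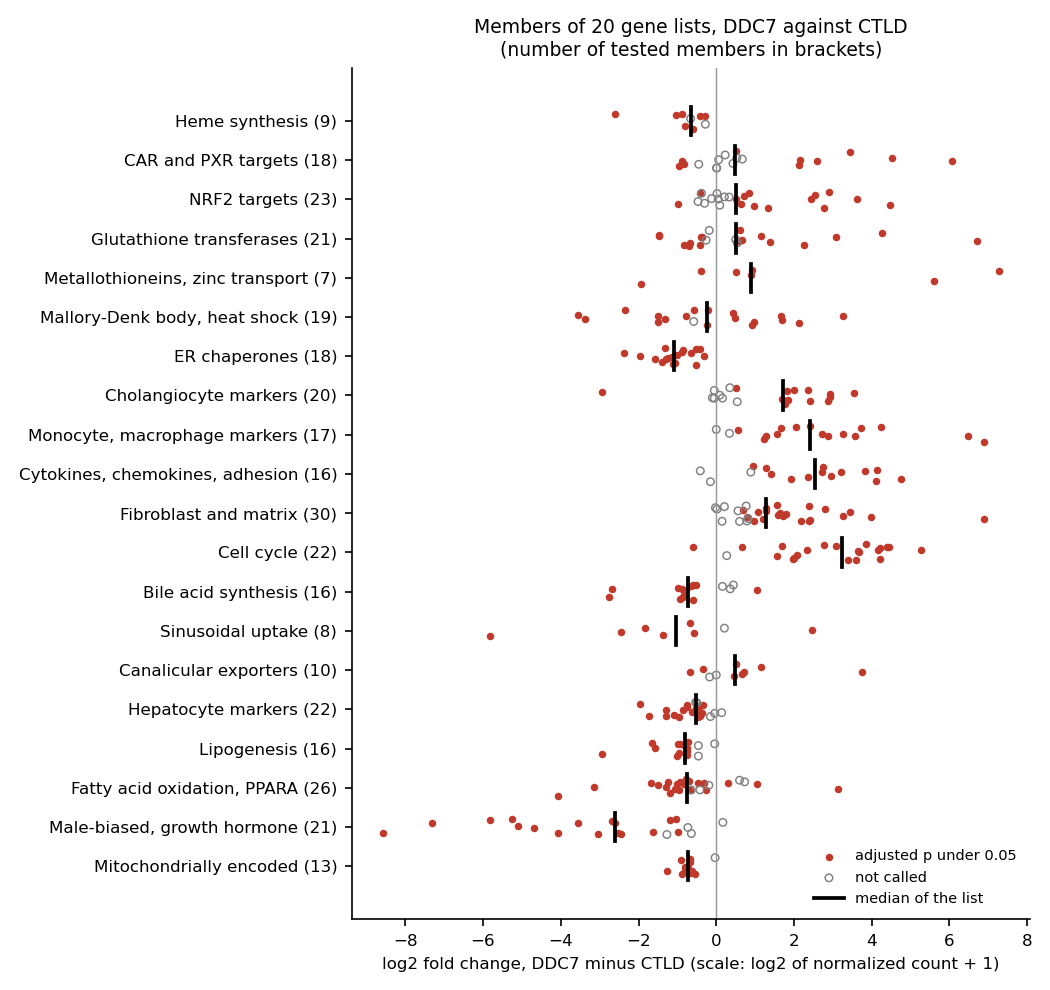
Each point is a tested member of 1 of 20 gene lists, placed by its log2 fold change in DDC7 against CTLD (x axis). Red points passed an adjusted p of 0.05, open points did not, and the black bar is the median of the list. Cell cycle, cytokine and macrophage lists lie mostly to the right of 0 (medians 3.23, 2.55 and 2.40), the 18 chaperone genes of the endoplasmic reticulum (ER) all lie to the left (median -1.07), and the male-biased list reaches -8.58.

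Heme synthesis genes were lower as a group. Of the 9 enzymes, 7 fell and 0 rose, with a median log2 fold change of -0.66, against 24.2% of all tested genes that fell. Under total-count scaling 4 of the 9 fell, with a median of -0.31. Ferrochelatase (Fech), the enzyme that DDC products block, had 505, 543, 518 and 465 normalized counts in DDC7 livers and 601, 639.5, 639 and 579 in CTLD livers. Every DDC7 library was below every CTLD library, but the fall was small (-0.28 ± 0.09, adjusted p = 0.0136). It was not called under total-count scaling (0.07) or without replicate 4 of DDC7 (-0.23). The porphyrin-forming middle of the pathway showed clearer falls. Uroporphyrinogen decarboxylase (Urod) fell by 0.87 ± 0.11 on the log2 scale (adjusted p = 1.39e-07) and coproporphyrinogen oxidase (Cpox) fell by 0.60 ± 0.12 (adjusted p = 8.45e-05). Both remained called under total-count scaling. Protoporphyrinogen oxidase (Ppox), at 8.66 ± 3.43 normalized counts in DDC7 and 18.1 ± 4.42 in CTLD (SD, n = 4 each), and aminolevulinate dehydratase (Alad), at 178 ± 10.6 in DDC7 and 237 ± 15.3 in CTLD, also fell, and neither was called under total-count scaling. Ppox was not called without replicate 3 of DDC7 either (-0.74).

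The 2 forms of the initial enzyme, aminolevulinate synthase, differed. Alas1, the rate-limiting housekeeping form, had 571, 707, 598 and 474 normalized counts in DDC7 livers and 1025, 427, 789 and 2051 in CTLD livers. The CTLD values spanned the DDC7 values, and no change was called (-0.66 ± 0.38, adjusted p = 0.150). Without replicate 2 of CTLD, the lowest control, a fall was called (-1.02). Alas2, the red cell form, had 37.0, 32.0, 36.9 and 74.4 in DDC7 livers and 227, 283, 262 and 286 in CTLD livers, with a fall of 2.60 ± 0.23 on the log2 scale (adjusted p = 8.71e-11). Globin transcripts were also lower, with Hbb-bs at 747 ± 383 normalized counts in DDC7 and 1673 ± 749 in CTLD (adjusted p = 0.0431), and its groups overlapped. That call was lost without any 1 of 4 of the libraries and under total-count scaling. The summed red cell and platelet markers ran from 1264 to 3718 in DDC7 and from 3702 to 8049.6 in CTLD, and the part of red cells in the Alas2 result was not tested.

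Of 21 genes that move, scavenge or break down heme 6 rose and 5 fell (28.6% and 23.8%), about the shares over all tested genes (25.2% and 24.2%), and 13 rose and 3 fell at equal totals. Heme oxygenase (Hmox1), which opens the heme ring, had 441, 413, 520.2 and 580.0 normalized counts in DDC7 livers and 71.0, 77.7, 99.2 and 110.2 in CTLD livers. The groups were well apart (2.44 ± 0.27, adjusted p = 1.28e-08). Slc48a1, which carries heme out of lysosomes, rose by 1.23 ± 0.12 on the log2 scale, and Flvcr2, a membrane transporter described for heme and for choline, by 3.27 ± 0.51. Of mitochondrial carriers, Abcb10, an inner membrane transporter needed for heme synthesis, fell by 1.31 ± 0.14, and Slc25a38, which imports the glycine used by aminolevulinate synthase, fell by 1.12 ± 0.19. Abcg2, a canalicular pump that also exports porphyrins, had 252 ± 28.8 normalized counts in DDC7 livers and 406 ± 84.5 in CTLD livers, a fall that kept its call under total-count scaling (adjusted p = 0.00707).

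Among 21 iron genes, 9 rose and 2 fell (12 and 0 at equal totals). In the main fit this was 42.9% and 9.52%, against 25.2% and 24.2% of all tested genes. Ferroportin (Slc40a1), the only known cellular iron exporter, had 834, 779.9, 782 and 795 normalized counts in DDC7 livers and 343, 379, 249 and 363 in CTLD livers (1.27 ± 0.16, adjusted p = 1.11e-07). Kupffer cells carry much of the liver's ferroportin. Their marker list, given with the macrophages, had 9 of 11 members higher, but it holds Slc40a1 itself, and the Kupffer cell gene Clec4f was not called. The part of these cells in the ferroportin result was not tested. Ceruloplasmin (Cp), the plasma ferroxidase, rose by 0.72 ± 0.12 on the log2 scale. Id1, a target of the bone morphogenetic protein signal that also drives hepcidin, had 158 ± 27.1 normalized counts in DDC7 and 19.9 ± 4.38 in CTLD. Hepcidin itself (Hamp), which closes ferroportin, had 2312, 2252, 2057 and 1701 in DDC7 livers and 1519, 2516, 2073 and 2392 in CTLD livers. Its groups overlapped throughout (-0.01 ± 0.33, adjusted p = 0.975). Ferritin light chain (Ftl1) fell by 0.44 ± 0.09, a call lost under total-count scaling, and under quantile normalization its sign turned (0.39).

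Targets of CAR and PXR, the nuclear receptors that sense drugs and other foreign compounds in hepatocytes, were mixed, with 7 of 18 tested members higher and 3 lower (12 and 1 at equal totals). Cyp2b10, the best known CAR target, had 1003, 972, 764 and 634 normalized counts in DDC7 livers and 4.05, 9.71, 20.9 and 18.5 in CTLD livers. No library of either group came near the other (6.07 ± 0.88, adjusted p = 2.14e-06). Cyp2a5 rose by 2.13 ± 0.27 and Cyp2a4 by 3.44 ± 0.54 on the log2 scale, but these steroid and coumarin hydroxylases are near-identical in sequence and reads may be shared between them. Sult1e1, which sulfates estrogens, had 35.2 ± 12.4 normalized counts in DDC7. Its CTLD libraries held only 2 reads, and the ratio of DDC7 to CTLD was 56.4 with a 95% exact counting interval of 15.4 to 469. Such intervals cover counting error only. Cyp3a11, the main PXR target, had 9215, 9926, 11180.1 and 7887 in DDC7 livers and 4827, 5477, 7679 and 6118 in CTLD livers. The groups did not overlap, yet the change missed the threshold (0.67 ± 0.30, adjusted p = 0.0590), and it passed under total-count scaling (adjusted p = 0.00323) and under quantile normalization (adjusted p = 7.41e-05). Ces2a, a carboxylesterase listed as a PXR target, fell by 0.96 ± 0.16.

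Of 7 genes listed for the aryl hydrocarbon receptor, 4 passed the filter and 3 rose. The receptor gene (Ahr) rose to 194 ± 30.1 normalized counts in DDC7 livers, against 84.1 ± 31.5 in CTLD livers (adjusted p = 0.00116). Tiparp, a target that feeds back on the receptor, rose by 0.67 ± 0.22 on the log2 scale, a call lost without replicate 4 of DDC7 (0.55). Cyp1a2, the pericentral P450 enzyme induced by this receptor, had 2955, 3139, 3097 and 2330.0 in DDC7 livers and 2435, 3492, 3925 and 3494 in CTLD livers. These ranges overlapped (-0.20 ± 0.54, adjusted p = 0.787), and Cyp1a1 did not pass the filter.

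NRF2, the transcription factor that answers oxidative and electrophilic stress, has targets in quinone reduction, thiol repair and glutathione supply. Of 23 tested, 12 rose and 2 fell (median 0.51). Nqo1, a quinone reductase, had 89.3, 86.3, 116 and 105 normalized counts in DDC7 livers and 11.2, 19.4, 7.83 and 13.1 in CTLD livers (2.91 ± 0.23, adjusted p = 3.97e-12). Sulfiredoxin (Srxn1), which repairs overoxidised peroxiredoxins, had 1038, 1134, 745 and 1191 in DDC7 livers and 155, 133, 168 and 142 in CTLD livers, a similar separation. The cystine importer Slc7a11 held 142 reads in DDC7 and 1 in CTLD, a ratio of 92.5 with a counting interval of 16.3 to 3680.3. By contrast in size, the catalytic subunit of glutathione synthesis (Gclc) had 2583, 2802, 1929 and 2683 in DDC7 livers and 2026, 2055, 1943 and 1873 in CTLD livers. A single DDC7 library, replicate 3, lay inside the CTLD range, and the change was not called (0.33 ± 0.15, adjusted p = 0.0643). Without that library it was (0.45), as it was with either other scaling. With the library kept, it was also called by limma fitted to only the 8 libraries (adjusted p = 0.0161) and by DESeq2 (adjusted p = 0.0474), but not by edgeR.

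The 21 glutathione transferases, which couple glutathione to electrophiles, had 9 members higher and 8 lower, and classes were mixed. Gsta1 had 1086, 1370.4, 1511 and 1396 normalized counts in DDC7 livers and 29.4, 37.2, 0 and 20.7 in CTLD livers (6.72 ± 1.20, adjusted p = 4.23e-05). Gsta2 rose by 3.07 ± 0.25, Gstm3 by 4.26 ± 0.47, Gstm2 by 2.27 ± 0.20 and Gstm1 by 1.38 ± 0.15 on the log2 scale. The pi class transferase Gstp1, abundant in male mouse liver, fell to 2081 ± 189 in DDC7 livers, against 5774 ± 792 in CTLD livers, and Gstz1, a zeta class enzyme of tyrosine breakdown, fell by 0.83 ± 0.11. In the alpha class Gsta3 fell to 3117 ± 262 in DDC7 livers, against 5055 ± 487 in CTLD livers, a call lost under quantile normalization (0.04). In the mu class Gstm6 (-0.40 ± 0.15) and Gstm7 (-0.36 ± 0.12) fell, calls lost under total-count scaling. The call of Gstm6 was also lost without replicate 1 of DDC7 or replicate 4 of CTLD, and that of Gstm7 without replicate 4 of DDC7. Gstp1 and Gstp2, like some mu class genes, are near-identical copies, so their split of reads is uncertain.

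Metallothioneins, small cysteine-rich proteins that bind zinc and copper, gave some of the largest rises. Mt2 had 1652, 1476, 1772 and 2616 normalized counts in DDC7 livers and 9.12, 16.2, 10.4 and 8.73 in CTLD livers (7.28 ± 1.15, adjusted p = 7.95e-06). Mt1 had 2029, 1854, 1997 and 2797 in DDC7 livers and 32.4, 53.4, 49.6 and 41.5 in CTLD livers (5.59 ± 0.92, adjusted p = 1.3e-05). In both genes replicate 4 of DDC7 was the highest library. A set of 3 zinc transporters rose with them: the plasma membrane exporter Slc30a1 by 0.89 ± 0.15 and the importers Slc39a4 by 0.92 ± 0.19 and Slc39a14 by 0.52 ± 0.17. The manganese exporter Slc30a10 fell to 64.7 ± 10.7 normalized counts in DDC7 livers, against 249 ± 6.18 in CTLD livers. The metal sensor Mtf1 fell by 0.38 on the log2 scale with overlapping groups, a call lost under total-count scaling and without any 1 of 4 of the libraries. In all, 5 of the 7 genes rose and 2 fell.

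The promoters of the metallothionein pair are shown because both genes moved together and their known control runs through metal response elements. The windows are the 250 bases before the RefSeq start on GRCm38.p6, 5′ to 3′ on the gene's strand, with matches to TGCACNC or TGCGCNC on either strand in capitals. The Mt1 window lies at chr8:94178839-94179088 on the plus strand, and the Mt2 window at chr8:94172368-94172617 on the plus strand.
Mt1: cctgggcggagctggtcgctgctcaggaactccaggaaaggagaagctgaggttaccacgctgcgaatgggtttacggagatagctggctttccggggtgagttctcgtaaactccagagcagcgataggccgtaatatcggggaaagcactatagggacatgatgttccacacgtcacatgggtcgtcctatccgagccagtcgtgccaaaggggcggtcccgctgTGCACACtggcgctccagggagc
Mt2: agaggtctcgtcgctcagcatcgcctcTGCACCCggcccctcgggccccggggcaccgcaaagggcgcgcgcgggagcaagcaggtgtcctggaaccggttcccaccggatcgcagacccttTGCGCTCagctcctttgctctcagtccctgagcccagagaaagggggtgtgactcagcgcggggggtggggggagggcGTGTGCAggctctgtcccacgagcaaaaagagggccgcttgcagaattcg
The Mt2 window held 3 matches and the Mt1 window 1. Of the 5 tested members of the list with a promoter in the table, TGCACNC was found in 3 (Mt1, Mt2 and Slc30a1), against 10.23% of all 27025 promoters and 10.02% of those of tested genes, and TGCGCNC in 2 (Mt2 and Slc30a10), against 12.56% of all and 22.36% of those of tested genes. A match describes the letters in the window and not a bound site.

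**Figure D2:**
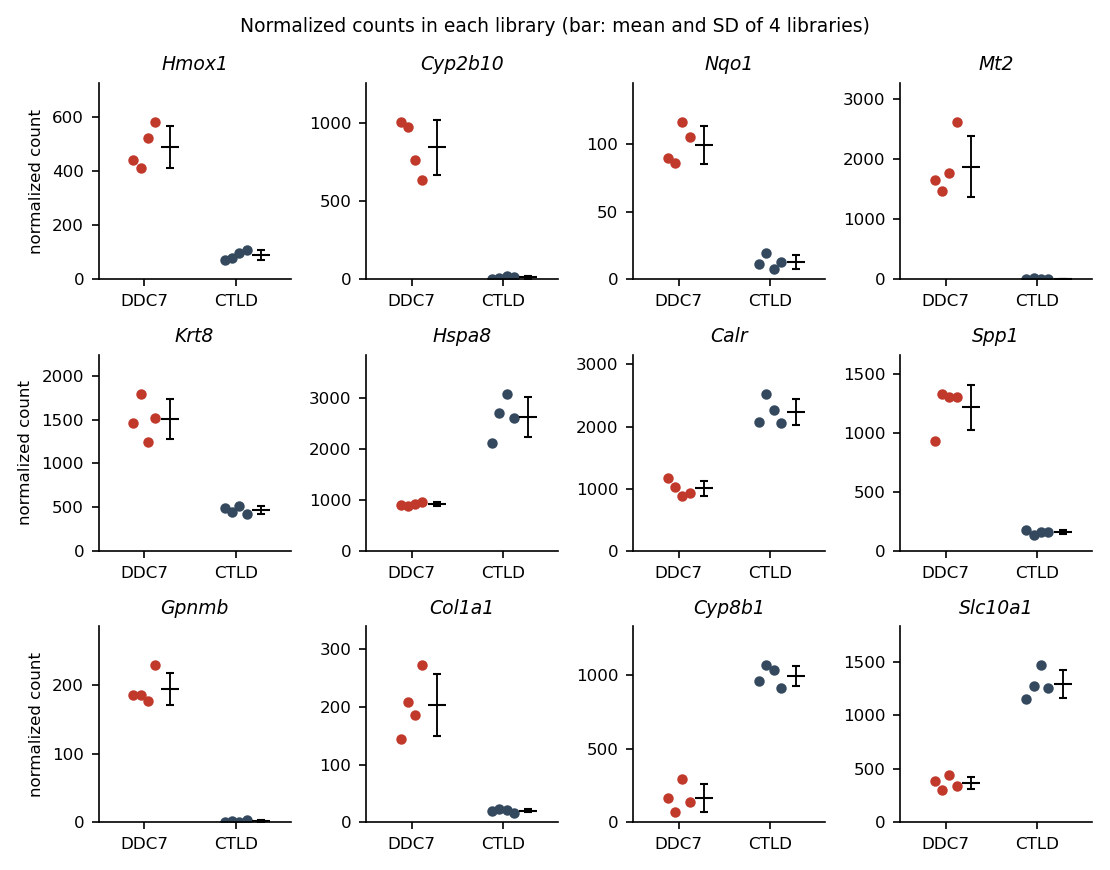
Normalized counts (y axis, from 0) of 12 genes in each DDC7 library (left, red) and CTLD library (right, dark blue), with the mean and SD of 4 libraries as a bar. In all 12 panels the groups do not overlap: Hmox1, Cyp2b10, Nqo1, Mt2, Krt8, Spp1, Gpnmb and Col1a1 are higher in DDC7, and Hspa8, Calr, Cyp8b1 and Slc10a1 are lower.

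The list of Mallory-Denk body components and related stress proteins split: structural members rose while heat shock proteins fell (8 of 19 higher, 10 lower, against 8 higher and 5 lower at equal totals). Keratin 8 (Krt8), a filament protein of hepatocytes and duct cells, had 1458, 1795, 1245 and 1519 normalized counts in DDC7 livers and 495, 444, 514 and 420.1 in CTLD livers (1.67 ± 0.18, adjusted p = 9.51e-09). Its partner keratin 18 (Krt18) had 809.5, 1008, 785 and 973 in DDC7 livers and 229, 223, 214 and 156 in CTLD livers (2.12 ± 0.18, adjusted p = 8.01e-11). The 2 keratins thus rose together and without overlap. Sqstm1, which encodes p62, had 2235, 2459, 1996 and 2227 in DDC7 livers and 1029, 1222, 1204 and 1123 in CTLD livers (0.96 ± 0.09, adjusted p = 7.8e-11). Annexin A5 (Anxa5), a phospholipid-binding protein, rose by 1.69 ± 0.13 on the log2 scale. Keratins are also duct cell genes, and the cholangiocyte marker sum given with the duct genes was higher in DDC7. Its part in the keratin result was not tested.

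Cytosolic chaperones went the other way. Hspa8, the constitutive heat shock cognate protein, had 906, 885, 926 and 958 normalized counts in DDC7 livers and 2122, 2709, 3081 and 2603 in CTLD livers (-1.50 ± 0.16, adjusted p = 2.02e-09). Hsph1, a nucleotide exchange factor for it, fell to 44.4 ± 12.9 in DDC7 livers, against 465 ± 114 in CTLD livers. The inducible Hspa1b was at 39.3 ± 5.69 in DDC7 and 495 ± 185 in CTLD, with the caution that Hspa1a and Hspa1b are near-identical copies. Hsp90aa1, the inducible cytosolic HSP90, fell by 1.23 ± 0.25, and the small heat shock gene Hspb1 by 1.49 ± 0.43. Of 11 tubulins, which form microtubules, 6 rose and 2 fell (54.5% and 18.2%, against 25.2% and 24.2% of all tested genes). Tubb6 rose by 2.27 ± 0.33, Tuba1a by 1.25 ± 0.24 and Tubb2b by 4.40 ± 0.51, while Tuba4a fell by 1.22 ± 0.15. The proteasome, which degrades ubiquitinated proteins, had 3 of 26 subunits higher and 6 lower (11.5% and 23.1%, median -0.17). Over all tested genes the shares were 25.2% and 24.2%. With equal totals 12 subunits were higher and 1 lower, but there 46.1% of all tested genes were higher and 10.4% lower. The higher share was thus near that of all genes. Psmc2, an ATPase of its cap, fell in both (-0.72 ± 0.09, and -0.37 with equal totals).

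Chaperones of the ER, which fold secreted proteins, fell without exception in the main fit: 18 of 18 listed genes, with a median of -1.07, and in 17 of them every DDC7 library was below every CTLD library, against 22.8% of all tested genes. Under total-count scaling 12 of the 18 fell (median -0.73) and 0 rose, and under quantile normalization 13 fell (median -0.70) and 0 rose. BiP (Hspa5), the master chaperone of this compartment, had 3279.5, 3612, 2409 and 2693 normalized counts in DDC7 livers and 5290.2, 7249.9, 8898 and 6835 in CTLD livers (-1.23 ± 0.21, adjusted p = 1.54e-05), a call not kept under quantile normalization (-0.40, adjusted p = 0.105). Calreticulin (Calr), a lectin chaperone, had 1167, 1032, 889.9 and 929.9 in DDC7 livers and 2079, 2526, 2267 and 2061 in CTLD livers. It fell under all 3 scalings (-1.15 ± 0.12, adjusted p = 1.45e-09 in the main fit). Sdf2l1, a cofactor of the BiP system, had the lowest log2 fold change of the list (-2.38) and fell to 70.4 ± 22.9 in DDC7 livers, against 366 ± 102 in CTLD livers. Creld2 fell by 1.97 ± 0.45 on the log2 scale, and Manf, a secreted cofactor of BiP, fell to 335 ± 86.7 in DDC7 livers, against 1006 ± 285 in CTLD livers. The disulfide isomerases Pdia4 and Pdia3 fell by 1.33 ± 0.15 and 1.05 ± 0.12 on the log2 scale. Calnexin (Canx), the membrane-bound partner of calreticulin, fell least (-0.31 ± 0.07), and its call was lost with either other scaling (0.04 and 0.02).

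Many of these promoters share a known control sequence, the ER stress element, to which the unfolded protein response factors ATF6 and XBP1 bind together with NF-Y. The element, CCAAT followed by any 9 bases and CCACG, was searched on both strands in the 250 bases before each RefSeq start of GRCm38.p6. It was found in 7 of the 16 listed genes with a promoter (43.8%), against 33 of 27025 promoters (0.12%) and 15 of 8402 promoters of tested genes (0.18%). The matched windows are printed 5′ to 3′ on the gene's strand with the element in capitals and 20 bases on each side. Where the element lies on the other strand it reads CGTGG, 9 bases and ATTGG. Between the end of a match and the start lay 46 to 193 bases.
Hspa5: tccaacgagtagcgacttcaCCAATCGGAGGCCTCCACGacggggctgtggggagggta
Hsp90b1: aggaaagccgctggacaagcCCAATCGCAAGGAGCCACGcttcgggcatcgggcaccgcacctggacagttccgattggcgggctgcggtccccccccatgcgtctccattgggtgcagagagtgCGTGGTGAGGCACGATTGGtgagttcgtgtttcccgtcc
Pdia6: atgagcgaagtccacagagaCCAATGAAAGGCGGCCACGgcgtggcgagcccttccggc
Calr: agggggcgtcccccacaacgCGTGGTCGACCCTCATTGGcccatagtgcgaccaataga
Canx: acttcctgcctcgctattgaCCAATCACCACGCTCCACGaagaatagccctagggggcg
Dnajc3: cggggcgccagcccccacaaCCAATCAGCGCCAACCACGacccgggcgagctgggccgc
Creld2: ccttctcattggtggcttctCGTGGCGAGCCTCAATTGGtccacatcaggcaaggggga
These windows lie at chr2:34772005-34772063 on the plus strand for Hspa5, chr10:86705513-86705676 on the minus strand for Hsp90b1, which holds the element at both ends, chr12:17266471-17266529 on the plus strand for Pdia6, chr8:84847055-84847113 on the minus strand for Calr, chr11:50325780-50325838 on the minus strand for Canx, chr14:118937807-118937865 on the plus strand for Dnajc3 and chr15:88819500-88819558 on the plus strand for Creld2. The element contains CCAAT, which alone was found in 14 of the 16 promoters and in 34.46% of all. Of the 15 tested genes with the full element, 11 fell and 1 rose, while 24.2% of all tested genes fell and 25.2% rose. Of these 15, 7 are the listed chaperones printed above, already counted among the 18 that fell, and 8 are outside the list. Outside the list, those that fell were Derl3 (-2.71 ± 0.59) and Syvn1 (-1.27 ± 0.29), both of ER-associated degradation, Alg12 (-1.17 ± 0.26), a mannosyltransferase of N-glycan assembly, and Acacb (-1.66 ± 0.43), a mitochondrial acetyl-CoA carboxylase. Acnat2, an acyl-CoA amino acid transferase, rose (2.02 ± 0.51). The 3 others outside the list, Hnrnpa3, Pan2 and Xlr3a, were not called.

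**Figure D3:**
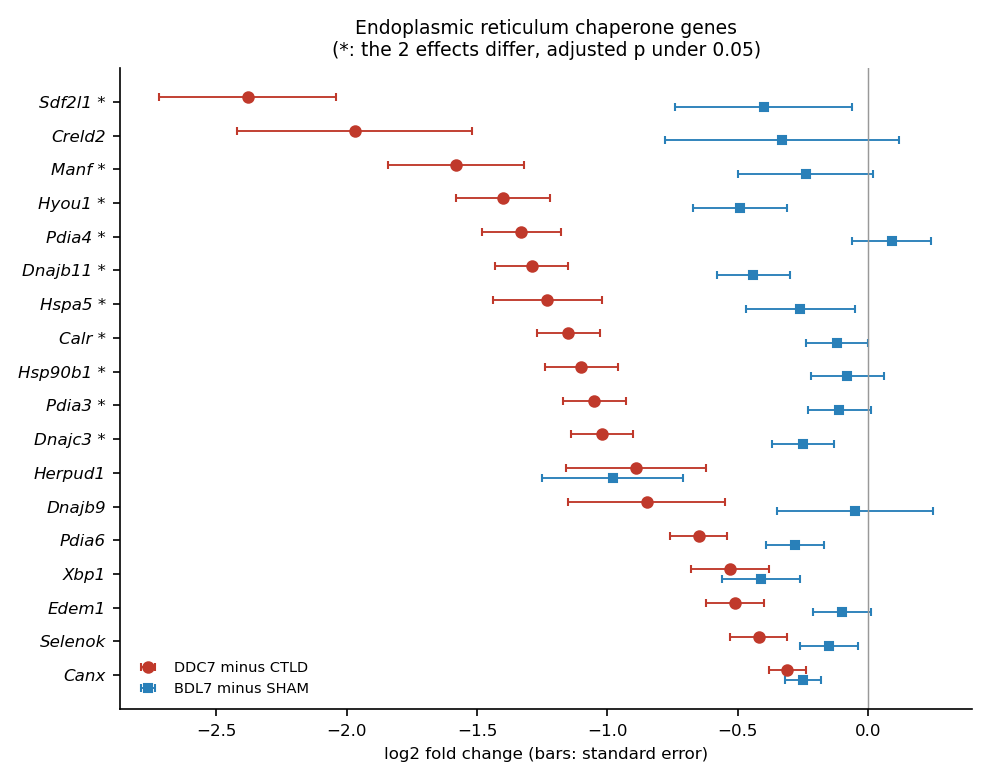
Log2 fold changes with standard errors (x axis) of 18 ER chaperone genes (rows) in DDC7 against CTLD (red circles) and in BDL7 against SHAM (blue squares). All 18 diet values lie below 0. The medians are -1.07 for the diet and -0.25 for ligation, and stars mark the 10 genes whose effects differed.

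Duct genes rose unevenly. Of 28 cholangiocyte markers, 20 passed the filter, and of these 12 rose and 1 fell (median 1.73). Their summed level was 3468 to 4140.0 normalized counts in DDC7 and 2045 to 2506 in CTLD. Osteopontin (Spp1), secreted by reactive duct cells and by macrophages, had 929, 1329.7, 1305 and 1300.3 in DDC7 livers and 177, 134, 157 and 161 in CTLD livers (2.93 ± 0.27, adjusted p = 6.61e-10). Epcam, a surface adhesion protein of duct and progenitor cells, had 34.8, 28.0, 49.8 and 43.9 in DDC7 livers and 11.2, 4.86, 3.91 and 8.73 in CTLD livers (2.36 ± 0.65, adjusted p = 0.00329). Both genes separated the groups. Bicc1, an RNA-binding protein of ducts, rose by 2.41 ± 0.36 on the log2 scale, Elf3, an epithelial transcription factor, by 2.87 ± 0.44, and ezrin (Ezr), which anchors the apical cytoskeleton, by 1.70 ± 0.19. Claudin 4 (Cldn4), a tight junction protein, held 84 reads in DDC7 and 2 in CTLD, a ratio of 27.4 with a counting interval of 7.34 to 229.7.

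The classical duct keratins were too low for the filter. Krt19 had 11.2 ± 2.04 normalized counts in DDC7 livers and 4.47 ± 0.903 in CTLD livers (SD, n = 4 each), which did not overlap but missed the threshold in the fit without a filter (1.16 ± 0.51, adjusted p = 0.0945). Krt7 had 6.50 ± 2.22 in DDC7 and 3.02 ± 2.51 in CTLD (adjusted p = 0.0567). Sox9, the transcription factor of duct and progenitor cells, had 278, 192, 354 and 339 in DDC7 livers and 223, 215, 226 and 132 in CTLD livers. Replicate 2 of DDC7 lay inside the CTLD range, and no change was called (0.54 ± 0.32, adjusted p = 0.163), though it was under total-count scaling (0.88). Onecut1, a hepatocyte and duct transcription factor, was the 1 marker that fell, with 28.3, 29.6, 14.9 and 9.92 in DDC7 livers and a wide 302, 56.7, 65.2 and 469 in CTLD livers. Notch and Hippo pathway genes, which steer duct fate and growth, had 8 of 14 members higher and 0 lower. The Hippo coactivator Wwtr1 rose by 0.98 ± 0.12, its DNA-binding partner Tead1 by 1.10 ± 0.17 and the target Axl, a receptor kinase, by 1.40 ± 0.21.

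Macrophage genes rose strongly. Of 17 tested monocyte and macrophage markers 15 rose and 0 fell (median 2.40), and their sum was 2881 to 3706 normalized counts in DDC7 and 971 to 1127 in CTLD. Gpnmb, a membrane glycoprotein of lipid-laden macrophages, had 186, 185, 177 and 229 in DDC7 livers and 1.01, 1.62, 0 and 3.27 in CTLD livers (6.48 ± 0.55, adjusted p = 5e-11). Mmp12, macrophage elastase, had 228, 242, 231 and 292 in DDC7 livers and 1.01, 1.62, 2.61 and 0 in CTLD livers (6.89 ± 0.85, adjusted p = 1.28e-07). Both were near 0 in every control. Trem2, a lipid receptor of the same cells, held 94 reads in DDC7 and 2 in CTLD (ratio 30.6, counting interval 8.25 to 257). Cd14, the coreceptor for endotoxin, rose by 4.24 ± 0.53, Cd9, a tetraspanin, by 2.04 ± 0.21, and the lysosomal marker Cd68 by 1.66 ± 0.30 on the log2 scale.

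Among 11 Kupffer cell markers 9 rose and 0 fell, with Slc40a1, given with the iron genes, among those that rose. The scavenger receptor Marco had 235, 173, 904 and 329 normalized counts in DDC7 livers and 11.2, 16.2, 9.13 and 17.5 in CTLD livers (4.57 ± 0.49, adjusted p = 1.37e-08), with replicate 3 of DDC7 far above the other DDC7 libraries. Cd5l, a secreted scavenger protein, rose by 2.18 ± 0.26, and the complement receptor Vsig4 by 1.13 ± 0.15. Clec4f, a lectin restricted to Kupffer cells in mice, had 155, 133, 188 and 142 in DDC7 livers and 105, 131, 121 and 152 in CTLD livers, which overlapped (0.28 ± 0.26, adjusted p = 0.388). Of 13 neutrophil markers only the calprotectin genes passed the filter. S100a8 rose to 79.2 ± 24.0 in DDC7 livers, against 6.02 ± 3.72 in CTLD livers, and S100a9 to 50.5 ± 18.8 in DDC7 livers, against 3.83 ± 1.83 in CTLD livers. Monocytes also carry both, and the neutrophil genes Ly6g, Mpo and Ltf had 0 reads in all 8 libraries. Below the filter, the neutrophil genes Retnlg (48 reads in DDC7, 4 in CTLD), Mmp8 (22 in DDC7, 1 in CTLD) and Mmp9 (30 in DDC7, 3 in CTLD) were called higher in the fit without a filter (log2 values of 2.45, 2.07 and 1.82), with every DDC7 library above every CTLD library. Lymphocyte markers were low in both groups: T and NK cell markers summed to 27.2 to 40.4 in DDC7 and 24.8 to 43.6 in CTLD, and B and plasma cell markers to 14.4 to 34.9 in DDC7 and 19.4 to 66.9 in CTLD.

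Genes of leukocyte recruitment rose (13 of 16 cytokines, chemokines and adhesion molecules, with 0 lower and a median of 2.55). Ccl2, the monocyte attractant, had 136, 118, 196 and 176 normalized counts in DDC7 livers and 6.08, 3.24, 15.7 and 12.0 in CTLD livers (4.11 ± 0.80, adjusted p = 0.000120). Tnfrsf12a, receptor of the cytokine TWEAK that drives progenitor growth, rose to 121 ± 17.6 in DDC7 livers, against 7.59 ± 1.14 in CTLD livers. The leukocyte adhesion molecule Vcam1 rose to 502 ± 67.2 in DDC7 livers, against 53.8 ± 12.0 in CTLD livers. The chemokine Cxcl14 rose by 2.74 ± 0.43 and the alarmin Il33 by 2.73 ± 0.34 on the log2 scale. The acute-phase list, 23 genes, held 6 that rose and 5 that fell (26.1% and 21.7%), close to the shares over all tested genes (25.2% and 24.2%). The balance depended on scaling, with 10 higher and 1 lower at equal totals and 13 higher and 1 lower after quantile normalization. Lipocalin 2 (Lcn2), which binds bacterial siderophores, had 320.2, 237, 322 and 299 in DDC7 livers and 1.01, 4.86, 3.91 and 4.36 in CTLD livers (6.13 ± 1.18, adjusted p = 0.000102). Saa1, a classical serum amyloid, had 959.8, 992, 929.8 and 921 in DDC7 livers and 294, 614, 817 and 601 in CTLD livers. All DDC7 values were higher, but the change missed the threshold (0.80 ± 0.75, adjusted p = 0.393). Lbp, the endotoxin carrier, rose by 1.14 ± 0.27, and the constitutive Saa4 fell by 1.11 ± 0.30.

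The interferon list gave no common direction, with 2 of 16 genes higher and 2 lower. At 12.5% each way, calls were rarer than over all tested genes (25.2% higher and 24.2% lower). Viperin (Rsad2), an antiviral enzyme, rose to 486 ± 69.8 normalized counts in DDC7 livers, against 138 ± 30.3 in CTLD livers (adjusted p = 3.4e-06), and Oasl1, a translational repressor, to 45.8 ± 8.04 in DDC7 livers, against 19.7 ± 4.46 in CTLD livers. The GTPase Irgm1 fell by 1.04 ± 0.23 on the log2 scale.

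Matrix genes also rose. Of 39 fibroblast and matrix genes 30 passed the filter, 21 rose and 0 fell (median 1.28). Collagen I (Col1a1), the main scar collagen, had 145, 209, 186 and 272 normalized counts in DDC7 livers and 20.3, 22.7, 20.9 and 16.4 in CTLD livers (3.25 ± 0.40, adjusted p = 1.3e-07). Col6a3, of the pericellular collagen VI, rose by 2.80 ± 0.46, and Col4a1, of basement membranes, by 1.27 ± 0.23. Timp1, which inhibits matrix proteases, had 16.7, 13.6, 11.0 and 18.4 in DDC7 livers and 0 reads in all CTLD libraries. Set against a floor of 3 reads over the group, it was at least 15.8-fold higher. The myofibroblast marker Acta2 rose by 1.65 ± 0.51, but the call was lost without replicate 1 of CTLD (0.89) and when only the 8 libraries were fitted (adjusted p = 0.0888). Endothelial markers of the sinusoid showed 2 of 15 higher and 3 lower (5 and 1 at equal totals). In the main fit these shares, 13.3% and 20.0%, were below those over all tested genes (25.2% and 24.2%). Cdh5, an adhesion protein of endothelial junctions, rose by 0.75 ± 0.15, and Dnase1l3, a secreted nuclease, fell by 1.04 ± 0.16.

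Proliferation genes rose, 20 of 22 tested, and 1 fell. Their median of 3.23 was exceeded in 1 list, the neutrophil markers, with 2 tested members. Ki-67 (Mki67), present in all cycling cells, had 53.7, 67.9, 43.8 and 96.3 normalized counts in DDC7 livers and 11.2, 8.09, 7.83 and 6.55 in CTLD livers (2.78 ± 0.63, adjusted p = 0.000465). Cyclin B1 (Ccnb1), which starts mitosis, had 57.4, 139, 62.8 and 135 in DDC7 livers and 1.01, 6.48, 0 and 1.09 in CTLD livers. In both genes replicates 2 and 4 of DDC7 were the highest. The mitotic kinase Cdk1 rose by 3.64 ± 0.57, survivin (Birc5) by 3.40 ± 0.44, the kinetochore gene Cenpf by 4.20 ± 0.66 and the replication helicase subunit Mcm6 by 2.34 ± 0.38 on the log2 scale. Thymidine kinase (Tk1) was the member that fell (-0.60 ± 0.18), a call lost under total-count scaling. Which cells cycled cannot be read from whole tissue.

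The p53 list, of stress and arrest genes, had 9 of 16 members higher and 0 lower. Mdm2, which degrades p53, rose to 176 ± 27.3 normalized counts in DDC7 livers, against 102 ± 12.9 in CTLD livers (adjusted p = 0.000228), and the receptor Eda2r to 20.3 ± 7.20 in DDC7 livers, against 1.07 ± 1.54 in CTLD livers. The arrest gene Cdkn1a had 351, 333, 282 and 416 in DDC7 livers and 149, 287, 91.3 and 96.0 in CTLD livers. Replicate 2 of CTLD reached into the DDC7 range, and the change was not called (1.29 ± 0.60, adjusted p = 0.0756). Without that library it was (1.64). With the library kept, it was called by limma under total-count scaling (adjusted p = 0.0197) and when only the 8 libraries were fitted (adjusted p = 0.0267). It was not called under quantile normalization or by edgeR. Among 16 immediate early genes, transcribed within minutes of a stimulus, 8 rose and 0 fell. Klf6, a zinc finger factor, had 507, 465, 393 and 558 in DDC7 livers and 60.8, 51.8, 87.4 and 50.2 in CTLD livers (2.95 ± 0.24, adjusted p = 2.48e-11). Sprr1a, a small proline-rich protein of stressed epithelia, had 125, 182, 323 and 348 in DDC7 livers and 1 read in CTLD. The ratio was 792 with a counting interval of 142 to 31298. Nipal1, a magnesium transporter, rose to 338 ± 42.8 in DDC7 livers, against 8.04 ± 8.39 in CTLD livers. In the integrated stress response 6 of 14 genes rose and 1 fell, with the pseudokinase Trib3 at 28.2 ± 5.33 in DDC7 and 6.49 ± 1.21 in CTLD.

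Bile acid genes were lower for synthesis and uptake and mostly higher for export. Of 16 synthesis genes 12 fell and 1 rose (median -0.72), and 9 fell and 3 rose at equal totals. Cyp8b1, which sets the cholic acid share, had 164, 67.9, 294 and 136 normalized counts in DDC7 livers and 957, 1064, 1035 and 912 in CTLD livers (-2.76 ± 0.34, adjusted p = 1.74e-07). Cyp7b1, of the alternative pathway, fell to 159 ± 27.5 in DDC7 livers, against 1031 ± 228 in CTLD livers, and Cyp27a1, which starts that pathway, by 0.77 ± 0.12 on the log2 scale. Cyp7a1, the rate-limiting enzyme of the classical pathway, had 478, 480.2, 893 and 273 in DDC7 livers and 321, 376, 378 and 359 in CTLD livers. The DDC7 values lay on both sides of the controls, and no change was called (0.44 ± 0.54, adjusted p = 0.525).

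Among 8 sinusoidal uptake genes 6 fell and 1 rose (4 and 2 at equal totals). NTCP (Slc10a1), the sodium-dependent bile acid importer, had 386, 306, 442 and 336 normalized counts in DDC7 livers and 1156, 1277, 1469 and 1258 in CTLD livers (-1.82 ± 0.23, adjusted p = 2.46e-07). Slco1a1, a male-biased organic anion importer, had 70.4, 32.0, 14.9 and 21.2 in DDC7 livers and 1773, 1774, 1588 and 1696 in CTLD livers (-5.82 ± 0.55, adjusted p = 1.75e-09). Slco1a4, its close relative, moved the other way, to 672 ± 158 in DDC7 livers, against 123 ± 33.6 in CTLD livers. Of 10 canalicular genes 6 rose and 2 fell (60.0% and 20.0%, against 25.2% and 24.2% of all tested genes). The bile salt pump Abcb11 had 897, 832, 739 and 560.2 in DDC7 livers and 753, 843, 902 and 857 in CTLD livers, which overlapped (-0.17 ± 0.19, adjusted p = 0.497). The drug pump Abcb1a rose to 127 ± 15.3 in DDC7 livers, against 9.08 ± 3.90 in CTLD livers, and the phospholipid floppase Abcb4 to 1762 ± 59.6 in DDC7 livers, against 1074 ± 69.6 in CTLD livers. On the sinusoidal side, where bile acids can leave to the blood, Abcc4 had 50.1, 55.9, 55.8 and 87.1 in DDC7 livers and 14.2, 8.09, 7.83 and 9.82 in CTLD livers (2.53 ± 0.32, adjusted p = 7.82e-08). Abcc3 rose by 1.21 ± 0.16 and Slc51b, of the organic solute transporter, by 2.10 ± 0.31. Slc51a, of the same transporter, had 0 reads in all 8 libraries. In all 3 of 5 basolateral exporters rose and 2 fell, the cholesterol exporter Abca1 (-0.40 ± 0.09) and Abcc6 (-0.47 ± 0.15), both calls lost at equal totals. Of 10 receptor genes and partners 4 fell and 1 rose. The bile acid receptor Nr1h4 fell by 0.67 ± 0.11, and its target Nr0b2 fell by 0.93 ± 0.29 with overlapping groups and no call under total-count scaling.

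Hepatocyte markers were lower, with 17 of 22 falling and 0 rising in the main fit (median -0.52). This depended on scaling: with equal totals 9 fell and 2 rose, and with quantile normalization 8 fell and 9 rose (median 0.07). Their sum was 92967 to 116910.4 normalized counts in DDC7 and 142962 to 176791 in CTLD, and its part in the falls of other hepatocyte genes, those of bile acid and lipid metabolism included, was not tested. Markers of pancreas, adipose tissue and muscle summed to 41.6 to 55.9 in DDC7 and 153 to 214 in CTLD. Most of each sum came from 1 elastase gene, Cela1, at 41.3 ± 6.21 in DDC7 and 179.8 ± 32.4 in CTLD. Of the 16 genes summed, 10 had 0 reads in DDC7 and 9 had 0 reads in CTLD, so the difference describes Cela1 and not these tissues. Transthyretin (Ttr) had 5809, 6344, 6679 and 6149 in DDC7 livers and 13698, 18204, 15461 and 14309.7 in CTLD livers, and it fell under all 3 scalings. Albumin (Alb) fell by 0.63 ± 0.11 on the log2 scale, and its call was not kept under quantile normalization (0.00). Hnf4a, the identity factor of hepatocytes, fell by 0.74 ± 0.16, and G6pc, which releases glucose, by 1.95 ± 0.32. Zonal genes showed no simple pattern. Of 17 pericentral genes 5 fell and 1 rose (29.4% and 5.88%, against 24.2% and 25.2% of all tested genes). Glutamine synthetase (Glul), of this list, was at 1148 ± 290.4 in DDC7 and 2531 ± 352 in CTLD. Of 15 periportal genes 5 fell and 3 rose, against 24.2% and 25.2% of all tested genes, but 3 fell and 5 rose at equal totals and 3 fell and 6 rose after quantile normalization. They included the P450 enzyme Cyp2f2, which fell (-1.40 ± 0.25), and the lipid droplet enzyme Hsd17b13, which rose (0.78 ± 0.11).

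Lipid metabolism was lower. In lipogenesis 13 of 16 genes fell and 0 rose (9 and 0 at equal totals): Thrsp, which promotes fat synthesis after feeding, had 132, 162, 94.7 and 118 normalized counts in DDC7 livers and 737, 834, 1373 and 1027 in CTLD livers (-2.95 ± 0.33, adjusted p = 3.08e-08), and pyruvate kinase (Pklr) fell by 1.58 ± 0.26. In fatty acid oxidation 18 of 26 fell and 3 rose (14 and 5 at equal totals), with the receptor Ppara at 144 ± 19.3 in DDC7 and 466 ± 73.3 in CTLD and the mitochondrial enzymes Hadha and Acaa2 lower (-1.24 ± 0.10 and -1.20 ± 0.10). Of 24 cholesterol synthesis genes 5 rose and 7 fell (20.8% and 29.2%, against 25.2% and 24.2% of all tested genes), and the balance turned at equal totals (12 higher, 3 lower) and after quantile normalization (8 higher, 5 lower). The regulator Insig1 fell by 1.35 ± 0.24. Of 24 urea cycle and amino acid genes 12 fell and 1 rose, but 6 fell and 7 rose at equal totals and 6 fell and 8 rose after quantile normalization. Ornithine transcarbamylase (Otc) was among those that fell in the main fit (-0.88 ± 0.17). All but 1 of 13 mitochondrially encoded transcripts fell (mt-Co1, -0.91 ± 0.14), yet with quantile normalization 2 fell and 3 rose. The clock list had 3 of 14 higher and 6 lower (4 and 3 at equal totals): the repressor gene Per2 was at 23.0 ± 6.88 in DDC7 and 69.2 ± 32.8 in CTLD, and the repressor Nr1d2 at 191 ± 20.6 in DDC7 and 73.1 ± 9.22 in CTLD. The hour of sampling is not given.

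The deepest falls were in male-biased genes that depend on the pulses of growth hormone, 17 of 21 lower and 0 higher with a median of -2.61. Hsd3b5, a steroid reductase, had 2 reads in all DDC7 libraries and 472 to 565 normalized counts in CTLD libraries, so CTLD was higher by a ratio of 1339 with a counting interval of 370.1 to 11065. Elovl3, a fatty acid elongase, had 21.8, 20.8, 9.97 and 12.7 in DDC7 livers and 2469, 2718, 2533 and 2802 in CTLD livers (-7.31 ± 0.57, adjusted p = 5e-11). Neither gene overlapped between groups. Nudt7, which hydrolyses coenzyme A in peroxisomes, fell by 3.56 ± 0.12, and the growth hormone receptor (Ghr) by 1.63 ± 0.11 on the log2 scale. Insulin-like growth factor (Igf1) fell to 2189 ± 234 in DDC7 livers, against 4297 ± 359.8 in CTLD livers, a call lost under quantile normalization (-0.29). Serpina1e, a serine protease inhibitor, and the urinary protein gene Mup21 fell by 5.11 ± 0.30 and 5.25 ± 0.29, with near-identical copies of both in the genome, so that their split of reads is uncertain. Outside the list, the transporter Slc22a28 had 3 reads in DDC7 and 185 in CTLD, and the sulfotransferase Sult2a8 fell to 50.6 ± 22.9 in DDC7 livers, against 1789.6 ± 335 in CTLD livers.

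Day 28 of the same diet was tested directly against day 7, in a contrast of the DDC28 and DDC7 means whose variance came from all 36 libraries: 233 genes (2.11%) were higher and 447 (4.05%) lower in DDC28 than in DDC7. The proliferation list moved most: 14 of its 22 genes were lower at day 28 and 0 higher, with a median of -2.40. Mki67 averaged 8.41 ± 1.95 normalized counts in CTLD, 65.5 ± 22.8 in DDC7 and 11.8 ± 9.87 in DDC28, and fell by 2.84 on the log2 scale between the days (adjusted p = 0.00438). Ccnb1 and Birc5 were lower at day 28 (-3.28 and -2.32). So were the interferon genes Rsad2 and Oasl1 (-1.45 and -1.42), p62 (Sqstm1, -0.52) and Glul (-1.32). The male-biased list sank further, with 11 of 21 lower at day 28 and a median of -1.19: Slco1a1 changed by -3.03 between the days. Mup20, a urinary pheromone protein, averaged 21597 ± 3371 in CTLD, 13829 ± 1996 in DDC7 and 952 ± 299.7 in DDC28, with its paralogs again a caution. Mup20 was lower in DDC28 than in DDC7 (adjusted p = 4.75e-09). In DDC7 against CTLD it was not called in the main fit (adjusted p = 0.112). It was called lower when limma was fitted to only the 8 libraries (-0.64, adjusted p = 0.000638). Rising further were the exporter Abcc4, by 1.89, the macrophage gene Gpnmb, by 1.86, the duct and progenitor markers Prom1, by 2.38, and Cd24a, by 1.57, and Sult1e1, by 3.14. Of the 18 ER chaperones 0 were called in either direction between the days (median -0.06), which does not show that the days are alike.

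**Figure D4:**
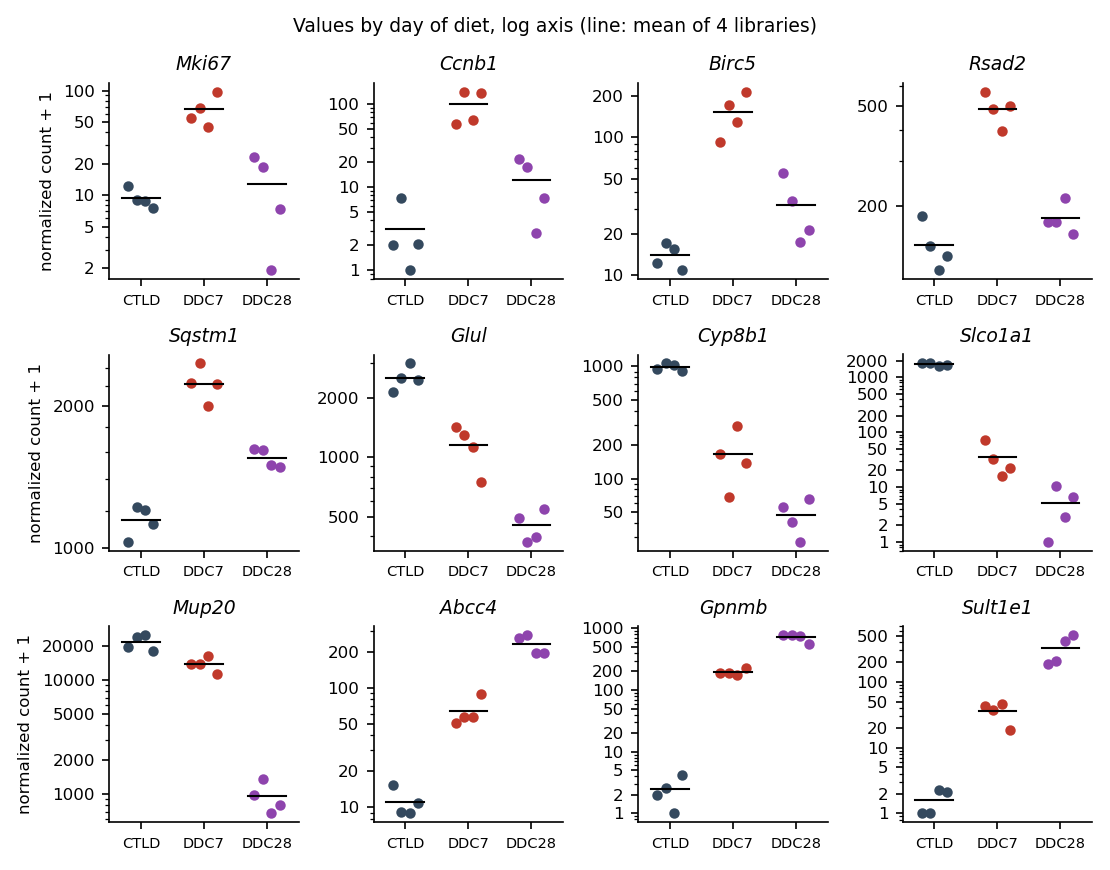
Normalized counts plus 1 (y axis, log scale) of 12 genes in CTLD (dark blue), DDC7 (red) and DDC28 (purple) libraries, with the mean of 4 libraries as a line. Mki67, Ccnb1, Birc5, Rsad2 and Sqstm1 were highest at day 7, Glul, Cyp8b1, Slco1a1 and Mup20 were lowest at day 28, and Abcc4, Gpnmb and Sult1e1 were highest at day 28.

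The diet was also set against bile duct ligation of the same length, the difference between (DDC7 minus CTLD) and (BDL7 minus SHAM), whose controls are different mice. It was positive in 604 genes (5.47%) and negative in 475 (4.30%). Of the ER chaperones 10 of 18 were more negative under the diet and 0 more positive. Calr changed by -1.15 under the diet and -0.12 under ligation (difference -1.03, adjusted p = 0.000257), Hspa5 by -1.23 and -0.26 (difference -0.98, adjusted p = 0.0327), and Pdia4 by -1.33 and 0.09 (difference -1.43, adjusted p = 9.29e-05). Cyp2b10 changed by 6.07 under the diet and 0.50 under ligation, a difference of 5.57 (adjusted p = 0.00501). The antimicrobial peptide gene Defb1 changed by 5.36 under the diet and 2.09 under ligation, and betacellulin (Btc), a ligand of the EGF receptor, by 3.82 under the diet and 1.83 under ligation, with differences of 3.27 (adjusted p = 0.000151) and 1.99 (adjusted p = 0.000165). More negative under the diet were the lipogenic factor Srebf1, at -1.02 under the diet and 1.16 under ligation, and the acute-phase gene Orm2, at 0.51 under the diet and 4.50 under ligation. For duct markers, macrophage markers and cell cycle genes 0 of 20, 0 of 17 and 0 of 22 differed between the models, which does not show that they respond alike.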

How the data were processed

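Liver RNA was read with a QuantSeq 3′ tag kit with molecular identifiers, per the labels' protocols, so a gene's value does not grow with its length. Per the submitters' processing notes, which give no roles or order, the genome build was GRCm39 and the tools included STAR 2.7.9a with RSEM 1.3.1, beside DESeq2, UMI-tools 1.1.1 and Trim Galore. The deposited signal is a normalized count per gene, and in all 36 libraries the deposited values were whole reads divided by 1 factor per library (tolerance 0.001), from which read counts were recovered. No column was left unmapped. Symbols came from a GRCm38 annotation (29121 of 29546 IDs matched), and the files' build differs, so the only coordinates given are those of promoter windows from the RefSeq tables, and reads of near-identical genes may be shared.

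The main test was limma 3.58.1 (R 4.3.3) with trend and robust settings on log2(deposited value + 1), pseudocount 1, over all 36 libraries with 1 coefficient per group and 27 residual degrees of freedom, 2-sided, with Benjamini-Hochberg adjusted p under 0.05 over all 11040 tested genes. All adjusted p-values are from limma unless another tool is named. edgeR 4.0.16 quasi-likelihood and DESeq2 1.42.0 on recovered reads, other scalings, pseudocounts, filters and left-out libraries were alternatives. On simulated counts for this comparison with 11040 genes, 68% of genes changed 2-fold and 96% of genes changed 4-fold were recovered. Of 173 calls, 9 were genes not changed. The simulation changed only 100 genes at each fold, up and down alike, and used the true library factors. In the data 25.2% of genes rose and 24.2% fell, and these shares depended on scaling. The simulated rates therefore do not describe that setting. Depth is given with the first result, and intervals cover counting error only. Promoters came from RefSeq tables of GRCm38.p6, with 8402 tested genes matched. Other motifs were searched in the same way. The heat shock element was in 0 of 14 promoters of the Mallory-Denk list (0.30% of tested genes). The antioxidant response element was in 5 of 20 NRF2 targets and 3 of 19 glutathione transferases (12.28% of tested genes). In 19 cell cycle promoters TTTGAA was in 6 (10.83% of tested genes) and CCAAT in 16 (36.79% of tested genes).

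Gene lists and members were chosen with earlier results of these data known. Named genes were 40 genes fixed by hand, the 8 highest and 8 lowest called genes without overlap whose higher group averaged 50 or more, and up to 5 genes of lowest p per list. Some genes that met the rule are not reported here. Chosen after their values were seen were Acacb, Acnat2, Acta2, Alg12, Btc, Canx, Cd24a, Creld2, Cyp1a1, Defb1, Derl3, Gsta3, Gstm6, Gstm7, Gstp1, Gstp2, Hnrnpa3, Hsp90aa1, Hsp90b1, Hspa1a, Hspa1b, Hspa5, Hspb1, Hsph1, Igf1, Ltf, Ly6g, Manf, Mmp8, Mmp9, Mpo, Mtf1, Mup20, Onecut1, Orm2, Pan2, Pdia6, Prom1, Retnlg, Sdf2l1, Slc39a14, Slc51a, Srebf1, Syvn1, Tk1 and Xlr3a.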

Additional observations from a re-analysis of the deposited data

Results flagged for a closer look

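Within groups of 4 libraries, 21 of 380 gene and group combinations held a library whose gap to its nearest neighbour was a large part of the range (Dixon's criterion), and chance alone flags about 1 in 20 groups. In DDC7, replicate 4 was the high library for Abcc4 (87.1 normalized counts), Alas2 (74.4), Defb1 (312), Gpnmb (229) and Slc39a14 (193), and the low library for Nipal1 (273), Srebf1 (105) and Gsta3 (2725). Replicate 1 of DDC7 was low for Spp1 (929), and replicate 3 was high for Vsig4 (445). In CTLD, replicate 4 was high for Abcc3 (139) and Cdh5 (100.4) and low for Pdia6 (1364) and Sox9 (132). Replicate 2 of CTLD was high for Ccnb1 (6.48) and Il33 (9.71) and low for Ces2a (772) and Wwtr1 (74.5). Replicate 3 of CTLD was high for Ezr (35.2), and it held the only CTLD read of Slc7a11 (1.30) and of Sprr1a (1.30).

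Of 190 named genes tested between the days of diet, 37 differed between DDC28 and DDC7 in limma, 8 higher and 29 lower at day 28, with log2 differences of DDC28 minus DDC7 as follows. Cell cycle genes were lower, with -2.84 for Mki67, -3.28 for Ccnb1, -2.32 for Birc5, -2.43 for Cdk1 and -2.96 for Cenpf. Male-biased or growth-hormone-dependent genes and the sulfotransferase were lower, with -3.90 for Mup20, -1.96 for Mup21, -3.03 for Slco1a1, -0.77 for Nudt7, -0.46 for Ghr and -2.86 for Sult2a8. Bile acid genes were lower, with -1.70 for Cyp8b1, -1.19 for Cyp7b1, -0.90 for Abcb11, -0.46 for Abcb4 and -1.06 for Nr0b2. Other hepatocyte genes gave -1.32 for Glul, -1.43 for Cyp2f2, -0.66 for Otc, -1.59 for Acacb, -0.93 for Gstm2, -0.48 for Gstm6, -0.63 for Abcc6 and -0.99 for Slc30a10. Stress and interferon genes gave -0.52 for Sqstm1, -1.58 for Hspb1, -1.45 for Rsad2 and -1.42 for Oasl1, and the endothelial gene Dnase1l3 gave -0.67. Higher at day 28 were Abcc4 (1.89), Gpnmb (1.86), Prom1 (2.38), Cd24a (1.57), Sult1e1 (3.14), Srebf1 (1.05), Thrsp (1.14) and Ppara (0.45).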

How the results depend on the processing

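The count of genes higher in DDC7 was 2781 and of genes lower 2677. Total-count scaling gave 5089 higher and 1148 lower, and a filter of 50, which tests fewer genes, gave 1729 higher. The other alternatives gave counts within 1.5 times: edgeR 2753 higher and 2709 lower, DESeq2 2659 higher and 2629 lower, and leaving out 1 library 2457 to 2647 higher and 2374 to 2573 lower. Between the days, quantile normalization gave 418 genes higher at day 28, against 233, and the cause was not tested. Replicate numbers did not pair the libraries, since 0 of 4 same-numbered pairs had a correlation above 0.1 (-0.004 to 0.014). With the replicate block 2818 genes were higher and 2693 lower. Of 190 named genes, 155 kept side and direction under all alternatives run. Signs turned under total-count scaling for Fech (0.07), Hamp (0.33), Cyp1a2 (0.15), Abcb11 (0.18) and Canx (0.04), and under quantile normalization for Hamp (0.52), Cyp1a2 (0.46), Abcb11 (0.06), Alb (0.00), Ftl1 (0.39), Gsta3 (0.04), Canx (0.02), Mup20 (0.20) and Pan2 (-0.14). Hamp and Pan2, both near 0, ranged over both signs without 1 library (Hamp -0.17 to 0.08, Pan2 -0.23 to 0.19), and Pan2 was negative with edgeR (-0.05) and DESeq2 (-0.05). Cyp3a11 was called by edgeR (adjusted p = 0.0345) and DESeq2 (adjusted p = 0.0181), over a range of 7.41e-05 to 0.0492 in the alternatives that called it. The causes were not tested. Genes under about 10 normalized counts, such as Krt19 and Krt7, are limited by depth.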
